A study of Mus musculus with 4 samples.

Results

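Phlda3, Sesn1, Sesn2, Sesn3 and Ddit4, genes whose products restrain the Akt and mTOR kinases, were followed in microglia, the resident macrophages of the brain, after irradiation. The genes were chosen by name, with earlier results of these data known. They are 5 of 27998 gene identifiers in the files, of which 16316 had a UMI (a tag that marks 1 captured RNA molecule). Microglia of C57BL/6 mice given a single whole-brain dose of 8 Gy at postnatal day 21 were compared with those of sham mice by sequencing single cells in droplets on the Chromium system of 10x Genomics. The 4 groups were irradiated at 6 h, sham at 6 h, irradiated at 1 week and sham at 1 week, and each was 1 library pooled from 4 mice. The labels give postnatal day 21 as the age for all libraries, and brain as the source, while the design text speaks of hippocampal microglia. Sex is not given in the sources used here. No library was repeated, so nothing here could be tested or checked across replicates, and the 95% intervals given here cover counting error only.

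Akt is a growth-promoting kinase that is activated at membrane lipids, and it relieves the brake that the TSC complex holds on mTORC1, the kinase complex that drives protein synthesis and restrains autophagy. Phlda3 is a small protein that binds the same membrane lipids as Akt and so keeps Akt from them. Sestrins are stress proteins that bind GATOR2, a complex that otherwise lets amino acids switch mTORC1 on through the Rag GTPases, and the sestrin encoded by Sesn2 also senses leucine. Ddit4, also called REDD1, restrains mTORC1 through the TSC complex. Phlda3, Sesn1 and Sesn2 are known to be switched on by p53, which damaged DNA activates, and Sesn2 is also a target of Atf4. Sesn3 is known as a FoxO target, and Ddit4 is known to respond to p53, hypoxia and glucocorticoids.

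The promoters of the genes that were higher after irradiation, and the inner start of Sesn1, which was not, are shown because these genes share a role but not a direction. Each line is the 250 bases before an annotated start, 5′ to 3′ on the gene's strand, from RefSeq (GRCm38.p6). Capitals mark a match to the p53 half-site or to the hypoxia response core ACGTG.
Phlda3, chr1:135765835-135766084, plus strand: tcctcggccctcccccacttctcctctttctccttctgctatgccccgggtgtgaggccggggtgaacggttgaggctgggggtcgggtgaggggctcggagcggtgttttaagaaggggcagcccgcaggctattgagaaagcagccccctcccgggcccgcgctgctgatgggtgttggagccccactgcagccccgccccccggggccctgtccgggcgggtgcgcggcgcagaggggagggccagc
Sesn2, chr4:132510457-132510706, minus strand: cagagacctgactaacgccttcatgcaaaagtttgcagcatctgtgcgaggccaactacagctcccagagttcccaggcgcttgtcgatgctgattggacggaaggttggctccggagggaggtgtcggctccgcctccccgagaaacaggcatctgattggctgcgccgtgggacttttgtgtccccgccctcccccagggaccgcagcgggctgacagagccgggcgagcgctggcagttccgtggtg
Ddit4, chr10:59951771-59952020, minus strand: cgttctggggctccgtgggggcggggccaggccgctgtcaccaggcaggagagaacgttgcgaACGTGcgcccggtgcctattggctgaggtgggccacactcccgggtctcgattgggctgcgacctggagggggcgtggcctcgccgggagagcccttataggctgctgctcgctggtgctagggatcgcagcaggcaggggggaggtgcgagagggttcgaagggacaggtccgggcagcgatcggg
Sesn1, inner start, chr10:41887189-41887438, plus strand: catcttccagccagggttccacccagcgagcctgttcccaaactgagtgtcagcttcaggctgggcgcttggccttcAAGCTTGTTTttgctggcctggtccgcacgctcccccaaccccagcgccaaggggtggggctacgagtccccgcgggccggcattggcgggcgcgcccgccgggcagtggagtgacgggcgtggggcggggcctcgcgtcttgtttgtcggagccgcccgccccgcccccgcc

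Ddit4 held ACGTG 187 bases before its start, and 16.6% of the 32851 promoters in the table hold these letters in the same window on either strand. The inner start of Sesn1 held a p53 half-site 173 bases before it, next to 7.13% of all promoters. Neither letter pattern was found in the windows of Phlda3 and Sesn2, nor in those of Sesn3 and of the outer start of Sesn1. The searched FoxO letters TGTTTAC, Atf4 letters TGATGNAA and glucocorticoid half-site letters AGAACA were found in none of these windows, against 3.17%, 3.45% and 16.1% of all promoters. All of the windows held a GC box (GGGCGG, 32.7% of all promoters), and all but that of Phlda3 held a CCAAT box (CCAAT, 33.8%). A match is a description of the letters and not of binding.

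The 4 libraries held 8486 barcodes, against 8095 cells in the design text, and 8369 passed a filter of at least 1000 UMIs, 500 genes and at most 10% mitochondrial UMIs. Kept cells numbered 1986 in irradiated at 6 h, 2652 in sham at 6 h, 2149 in irradiated at 1 week and 1582 in sham at 1 week, with 5675117 to 9736149 UMIs per library and median depths of 3437 to 3594 UMIs. At least 5 of 9 microglia markers had a UMI in 98.4% to 99.9% of kept cells, and pairs of libraries shared 4 to 12 barcodes. The summed microglia markers were at 39875 CPM (UMI counts scaled to a common library total of 1000000) in irradiated at 6 h and 49926 CPM in sham at 6 h, and at 49653 CPM in irradiated and 47787 CPM in sham at 1 week. Summed markers of oligodendrocyte precursors were at 9.64 CPM in irradiated and 0.514 CPM in sham at 6 h, and those of astrocytes at 253 and 146 CPM, mostly from Slc1a3 with 1778 and 1389 UMIs. Pericyte markers went the other way, at 1.36 CPM in irradiated and 16.8 CPM in sham at 6 h, as did B cell markers, at 39.2 and 89.4 CPM. Neutrophil markers were at 0 in every library. As an alternative, cells with 2 or more UMIs of neuron, astrocyte, oligodendrocyte, oligodendrocyte precursor, endothelial, pericyte or ependymal markers were left out. The lists of B cells, monocytes, border macrophages, neutrophils, T and NK cells and erythroid cells were not used for this removal. Without the cells left out, the folds of the 5 genes to the sham of the same time kept their direction and their side of 1.5-fold. The folds of other genes were not recomputed without these cells.

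Phlda3 (ENSMUSG00000041801, GRCm38 chromosome 1, 135766119 to 135769136, plus strand) was almost silent in sham microglia and became abundant after irradiation. It stood at 350 CPM in irradiated at 6 h and at 0.616 CPM in sham at 6 h, from 2577 and 6 UMIs. One week after irradiation it was at 117 CPM in irradiated and 0.881 CPM in sham cells, from 899 and 5 UMIs. Both irradiated libraries lay above both sham libraries by more than counting error, and the sham libraries could not be told apart. The log2 fold was 9.15 (8.02 to 10.6) at 6 h and 7.05 (5.82 to 8.67) at 1 week, and the width of these intervals comes from the few sham UMIs. Between the irradiated libraries Phlda3 was 3.003-fold lower at 1 week than at 6 h, a log2 fold of -1.59 (-1.70 to -1.48).

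**Figure D1:**
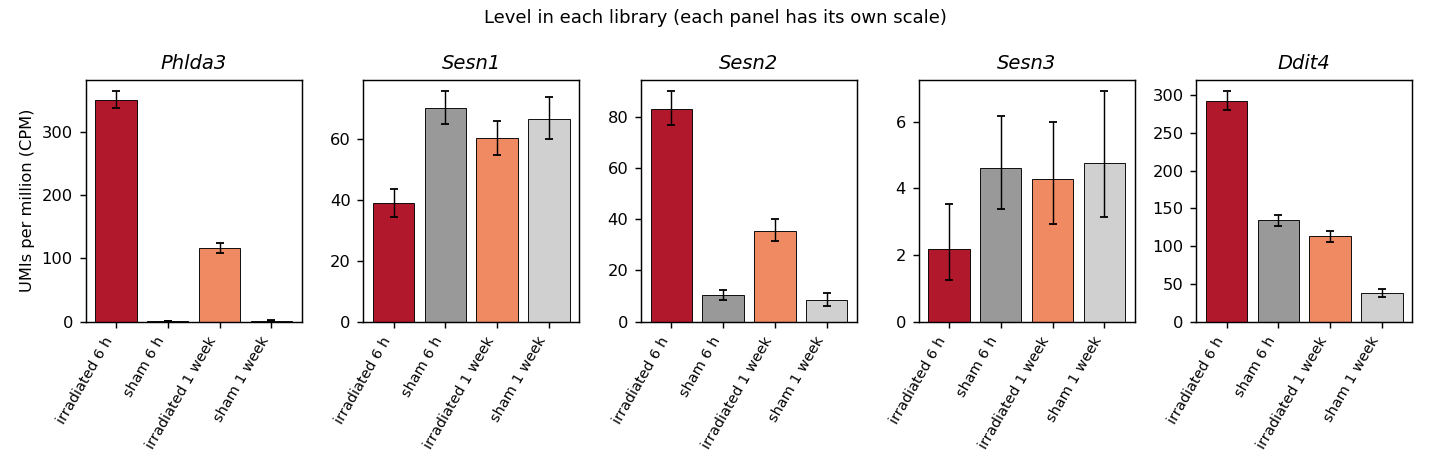
Level of each gene in CPM (linear axes from 0, 1 scale per panel) in the irradiated and sham libraries at 6 h and 1 week. Bars are the summed UMIs of kept cells in 1 library each, and error bars are exact Poisson 95% intervals. Phlda3 and Sesn2 are high in both irradiated libraries, Sesn1 and Sesn3 are lowest in irradiated at 6 h, and Ddit4 differs between the sham libraries, at 37.9 CPM at 1 week and 134 CPM at 6 h.

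Sesn2 (ENSMUSG00000028893, chromosome 4, 132492032 to 132510501, minus strand), the stress-induced leucine sensor, was the sestrin that was higher after irradiation. It was at 83.4 CPM in irradiated and 10.3 CPM in sham at 6 h, from 614 and 100 UMIs, and at 35.6 CPM in irradiated and 8.46 CPM in sham at 1 week, from 275 and 48 UMIs. The order of levels was irradiated at 6 h, irradiated at 1 week and then the sham libraries, which did not differ beyond counting error. The log2 fold was 3.02 (2.71 to 3.34) at 6 h and 2.08 (1.63 to 2.55) at 1 week. Between the irradiated libraries Sesn2 was 2.34-fold lower at 1 week than at 6 h, log2 -1.23 (-1.44 to -1.02). An annotated noncoding gene on the same strand, Gm12981 (132503561 to 132509649), lies within Sesn2 and had 22 and 5 UMIs in irradiated and sham at 6 h and 17 and 0 at 1 week, so how the counting shared reads between them is uncertain.

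Sesn1 (ENSMUSG00000038332, chromosome 10, 41809935 to 41908424, plus strand), also a known p53 target, was lower and not higher at 6 h. It was at 38.8 CPM in irradiated and 70.3 CPM in sham at 6 h, from 286 and 684 UMIs, and at 60.3 CPM in irradiated and 66.6 CPM in sham at 1 week, from 465 and 378 UMIs. Irradiated at 6 h stood below the other libraries, and among those the intervals of neighbouring levels overlapped. The log2 fold was -0.86 (-1.06 to -0.65) at 6 h and -0.14 (-0.34 to 0.055) at 1 week. Between the irradiated libraries Sesn1 was 1.55-fold higher at 1 week than at 6 h. Counts per gene do not tell transcripts from the outer and inner starts of Sesn1 apart. The annotated gene 9930024M15Rik, on the same strand within Sesn1, was not used here.

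Sesn3 (ENSMUSG00000032009, chromosome 9, 14275067 to 14333101, plus strand), the sestrin known as a FoxO target, was scarce everywhere. It was at 2.17 CPM in irradiated and 4.62 CPM in sham at 6 h, from 16 and 45 UMIs, and at 4.28 CPM in irradiated and 4.76 CPM in sham at 1 week, from 33 and 27 UMIs. The log2 fold was -1.09 (-2.01 to -0.24) at 6 h and -0.15 (-0.93 to 0.64) at 1 week, so at this depth no difference was detectable at 1 week. The Poisson intervals of the libraries at 6 h overlapped slightly, 1.24 to 3.53 CPM in irradiated and 3.37 to 6.18 CPM in sham.

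Ddit4 (ENSMUSG00000020108, chromosome 10, 59949669 to 59951834, minus strand) was higher in irradiated than in sham microglia of the same time, but its level also differed between the sham libraries. It stood at 293 CPM in irradiated and 134 CPM in sham at 6 h, from 2156 and 1305 UMIs, and at 113 CPM in irradiated and 37.9 CPM in sham at 1 week, from 871 and 215 UMIs. The log2 fold was 1.13 (1.03 to 1.23) at 6 h and 1.58 (1.36 to 1.80) at 1 week. The sham library at 1 week lay 3.54-fold below the sham library at 6 h, log2 -1.82 (-2.04 to -1.61), a larger gap than that between irradiated and sham at either time. Irradiated cells at 1 week therefore stood below the sham cells at 6 h, log2 -0.25 (-0.37 to -0.12), and the direction at 1 week rests on the sham library of that time.

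**Figure D2:**
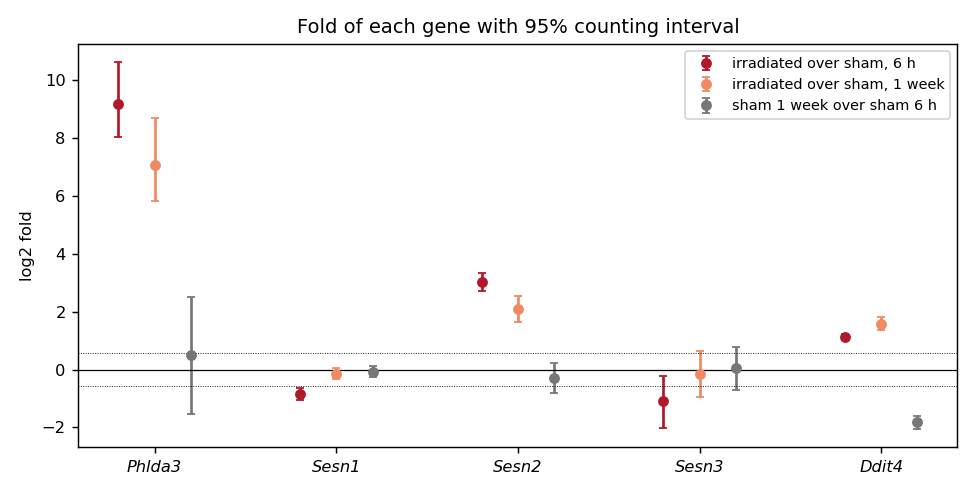
Log2 fold of each gene for irradiated over sham at 6 h, irradiated over sham at 1 week, and sham at 1 week over sham at 6 h. Points are folds of CPM, bars exact conditional binomial 95% intervals, and dotted lines mark 1.5-fold. For Phlda3 and Sesn2 both irradiated folds lie far from that between the sham libraries, while for Ddit4 the sham fold of -1.82 is the farthest from 0.

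Beside all genes with at least 50 UMIs over a pair of libraries, the 5 genes were thus split. They were chosen with earlier results of these data known, so the split is a description. Phlda3 reached 50 UMIs only through irradiated cells. At 6 h Phlda3, Sesn2 and Ddit4 were at least 1.5-fold higher, as were 8.97% of 9934 genes, and Sesn1 and Sesn3 were at least 1.5-fold lower, as were 9.31%. At 1 week the same 3 genes were at least 1.5-fold higher, as were 4.01% of 9518 genes, and none was that much lower, against 3.12%. Between the sham libraries Ddit4 was the only one of the 4 measured genes past 1.5-fold, on the lower side with 4.89% of 9728 genes, against 2.89% on the higher side. Phlda3 had too few sham UMIs to be measured there. Over all genes the log2 fold had a median of -0.062 at 6 h and 0.036 at 1 week, and of -0.050 between both sham groups. The immediate early and dissociation genes, which follow tissue handling, were also apart between the sham libraries, with a summed level of 16347 CPM in sham at 1 week and 11798 CPM in sham at 6 h, 11 of 21 genes at least 1.5-fold higher at 1 week and 0 lower. The summed level was 10338 CPM in irradiated at 6 h and 14668 CPM in irradiated at 1 week. Summed markers of other cells also differed between the sham libraries. Monocyte markers were at 8.46 CPM in sham at 1 week and 30.8 CPM in sham at 6 h, with Ly6c2 at 0 in all libraries. Border macrophage markers were at 14.4 and 40.7 CPM, and pericyte markers at 0 and 16.8 CPM, in that order. The part of the handling genes and of these cell types in the sham difference of Ddit4 was not tested. The sham libraries also differ in time, so a change with time cannot be told apart from a difference between libraries.

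The sestrin pool changed its make-up more than its size. Summed over Sesn1, Sesn2 and Sesn3, the level was 124 CPM (116 to 133) in irradiated and 85.1 CPM (79.4 to 91.1) in sham at 6 h, a log2 fold of 0.55 (0.41 to 0.68). At 1 week it was 100.2 CPM (93.2 to 107) in irradiated and 79.8 CPM (72.6 to 87.5) in sham, a log2 fold of 0.33 (0.16 to 0.50). Sesn2 gave 67.0% of sestrin UMIs (63.9 to 70.1%) in irradiated at 6 h and 12.1% (9.92 to 14.5%) in sham at 6 h. At 1 week its share was 35.6% (32.2 to 39.1%) in irradiated and 10.6% (7.92 to 13.8%) in sham. Sesn1 gave 31.2% and 82.5% in irradiated and sham at 6 h, and 60.2% and 83.4% at 1 week. These are shares of captured molecules, and capture can differ between genes, so the comparison is between libraries and not between sestrins.

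**Figure D3:**
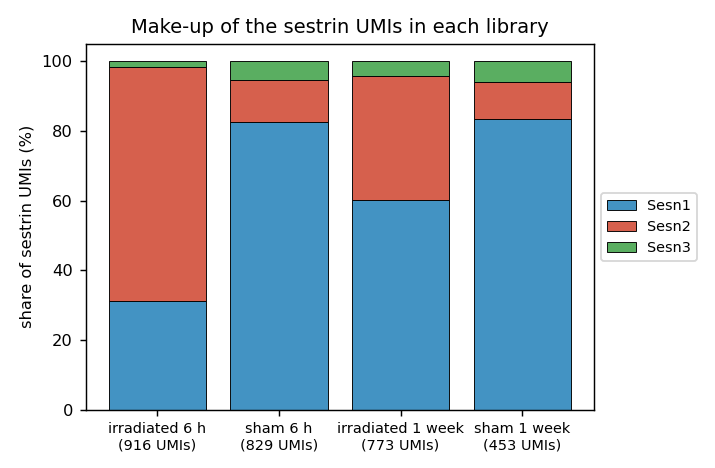
Share of sestrin UMIs (%) from Sesn1, Sesn2 and Sesn3 in each library, as stacked bars with the number of sestrin UMIs under each bar. Sesn2 makes up 67.0% in irradiated at 6 h and 35.6% in irradiated at 1 week, against 12.1% and 10.6% in the sham libraries of those times.

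Seen cell by cell, Phlda3 was found in a large part of irradiated microglia and in almost no sham cell. Each cell was thinned to 2000 UMIs, so that depth was equal. This left 1896 cells in irradiated and 2559 in sham at 6 h, and 2040 in irradiated and 1393 in sham at 1 week, without 90, 93, 109 and 189 shallower cells in that order. Phlda3 had a UMI in 48.1% (45.8 to 50.4%) of irradiated and 0.0391% (0.000989 to 0.218%) of sham cells at 6 h, and in 19.6% (17.9 to 21.3%) of irradiated and 0.144% (0.0174 to 0.518%) of sham cells at 1 week. Without thinning, these shares were 65.1% and 0.226% at 6 h and 29.9% and 0.253% at 1 week. No cell type is known to lack Phlda3 after irradiation, so free RNA could be gauged only loosely, and the 12 cells of irradiated at 6 h with 2 or fewer microglia markers (median depth 1313.5 UMIs, against 3533 UMIs in marker cells) held a Phlda3 UMI in 2 and a Ddit4 UMI in 3. Among those 12 cells, Sesn1, Sesn2 and Sesn3 had no UMI, while 9 held a UMI of Cdkn1a and 7 of the microglia gene C1qa.

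For Sesn2 the share was 15.5% (13.9 to 17.2%) in irradiated and 1.88% (1.39 to 2.48%) in sham at 6 h, and 6.52% (5.49 to 7.68%) in irradiated and 2.01% (1.34 to 2.89%) in sham at 1 week. Ddit4 was found in 39.3% (37.1 to 41.6%) of irradiated and 21.5% (19.95 to 23.2%) of sham cells at 6 h, and in 18.4% (16.7 to 20.1%) of irradiated and 5.74% (4.58 to 7.10%) of sham cells at 1 week. Both genes were thus found in more irradiated than sham cells of the same time. Sesn1 went the other way at 6 h, with 8.23% (7.03 to 9.56%) of irradiated and 13.8% (12.5 to 15.2%) of sham cells. At 1 week its shares were 11.6% (10.3 to 13.1%) in irradiated and 12.1% (10.5 to 14.0%) in sham, which did not differ beyond counting error. Sesn3 was found in 0.422% and 0.899% of cells in irradiated and sham at 6 h and in 1.08% and 1.15% at 1 week, with overlapping intervals at both times.

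**Figure D4:**
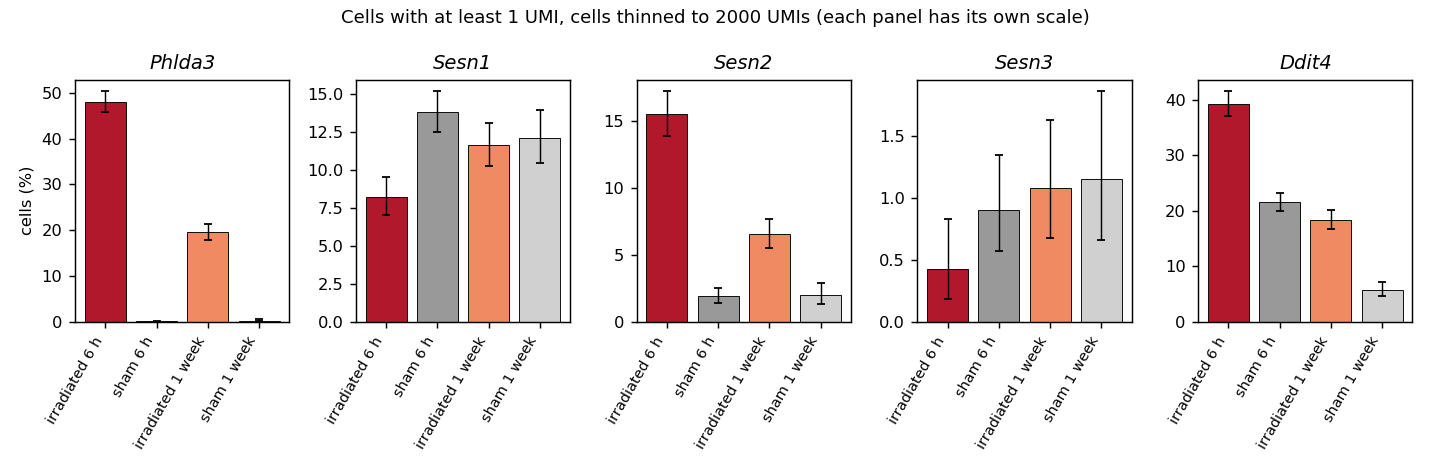
Share of cells (%) with at least 1 UMI of each gene after thinning each cell to 2000 UMIs, in the irradiated and sham libraries at 6 h and 1 week (linear axes from 0, 1 scale per panel). Error bars are exact Clopper-Pearson 95% intervals. Phlda3 reaches 48.1% of irradiated cells at 6 h and 19.6% at 1 week, with the sham bars near 0.

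Ddit4 was the most uneven of the 5 genes over cells of irradiated at 6 h. Among thinned cells there, the variance of its UMIs per cell was 1.53 times the mean, where evenly spread counts give 1, and 5.80% of cells held 3 or more UMIs. The same ratio was 1.17 for Phlda3, of which 5.12% of cells held 3 or more UMIs, 1.03 for Sesn2 and 1.00 for Sesn1. In sham at 6 h the ratio for Ddit4 was 1.29. At 1 week it was 1.28 in irradiated and 1.34 in sham, so Ddit4 was uneven in sham cells too.

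Whether responding genes occur in the same microglia is a stated question of the study. In irradiated at 6 h, Phlda3 was found in 54.0% (50.4 to 57.6%) of 746 cells with a Ddit4 UMI and 44.3% (41.4 to 47.2%) of 1150 cells without one. Phlda3 was also found in 54.4% (48.5 to 60.2%) of 294 cells with a Sesn2 UMI and 46.9% (44.5 to 49.4%) of 1602 cells without one, with overlapping intervals. Phlda3 was thus found in a modestly larger share of cells with a Ddit4 UMI than of cells without one, and 403 cells held both genes while 509 held only Phlda3 of the pair. All 3 higher genes were found in 4.06% of cells, 2 in 24.6%, 1 in 41.5% and none in 29.8%. In sham at 6 h none was found in 76.9% and all 3 in 0 of 2559 cells, for which the exact interval reaches 0.144%. At 1 week none was found in 62.5% of irradiated and 92.4% of sham cells.

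The Sesn2 and Sesn1 differences at 6 h held in irradiated cells whether or not Phlda3 was seen. In irradiated at 6 h Sesn2 was found in 17.5% (15.1 to 20.2%) of cells with a Phlda3 UMI and 13.6% (11.5 to 15.9%) of those without, both above the 1.88% of sham at 6 h. Sesn1 was found in 9.32% (7.51 to 11.4%) of irradiated cells with a Phlda3 UMI and 7.22% (5.68 to 9.01%) of those without, both below the 13.8% of sham at 6 h. Sesn1 was found in 8.16% (5.30 to 11.9%) of irradiated cells with a Sesn2 UMI and 8.24% (6.94 to 9.70%) of those without. Both shares lay below that of sham at 6 h, but they cannot tell whether Sesn1 was lower in cells that do not express Sesn2. Since a UMI is missed in many cells that express a gene, a cell without a UMI is not a cell without the transcript.

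The other genes of the Akt and mTOR pathway passed 1.5-fold at shares near those of all genes. Of 98 genes in 9 lists, 85 were measured at 6 h, with 10 at least 1.5-fold higher (11.8%) and 10 lower (11.8%) and a median log2 fold of -0.097. At 1 week 3 of 84 were higher, 1 was lower, and the median was 0.017. These shares stand beside 8.97% higher and 9.31% lower among all genes at 6 h, and 4.01% and 3.12% at 1 week. The counts of the single lists that follow stand beside the same shares of all genes, and each list is small.

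Upstream, no PI3K or Akt gene of 12 was higher at 6 h and 2 were lower. Pik3cg, the catalytic subunit of PI3K gamma, was at log2 -0.77 (-1.02 to -0.53), and Pik3r2, a regulatory subunit, at -0.73 (-1.11 to -0.36). At 1 week Akt1, the kinase that Phlda3 restrains, was at 36.0 CPM in irradiated and 54.4 CPM in sham, log2 -0.60 (-0.83 to -0.36). Of 8 genes measured at 6 h in the list named Akt brakes, the pseudokinase gene Trib1 was higher, at 0.64 (0.50 to 0.79). The phosphatase gene Phlpp2 was lower, at -0.73 (-1.29 to -0.19), while none of 9 passed 1.5-fold at 1 week. Whether Trib1 acts on Akt was not tested. Phlda1, a relative of Phlda3, was at 21.4 CPM in irradiated and 6.16 CPM in sham at 6 h, log2 1.80 (1.36 to 2.25), and Phlda2 had no UMI in any library.

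Among subunits of the mTOR complexes, 1 of 12 was higher and 2 were lower at 6 h. Prr5l, which binds mTORC2, stood at log2 1.31 (0.82 to 1.81), its relative Prr5 at -0.73 (-1.19 to -0.29) and Deptor, an inhibitor of mTOR, at -0.62 (-1.24 to -0.023). None of the 4 measured TSC and Rheb genes, through which Ddit4 acts, passed 1.5-fold at either time. Strada, a partner of the kinase Lkb1, was at -0.59 (-0.92 to -0.26) at 6 h, the 1 gene lower of 8 AMPK and Lkb1 genes with 0 higher. At 1 week the AMPK subunit gene Prkaa1 was at 0.77 (0.11 to 1.47), with 8.42 CPM in irradiated and 4.93 CPM in sham. Its level in sham at 6 h was 7.70 CPM, so this call rests on the sham library of 1 week. None of 5 genes of GATOR2, the complex that sestrins bind, passed 1.5-fold at 6 h, and Mios was at 0.66 (-0.022 to 1.38) at 1 week. In the GATOR1 and KICSTOR list Kptn was at -0.72 (-1.34 to -0.12) at 6 h and Itfg2 at 0.59 (0.20 to 0.99) at 1 week, each 1 of 5 measured. Itfg2 was at 21.8 CPM in irradiated and 14.4 CPM in sham at 1 week, beside 17.0 CPM in sham at 6 h.

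The Rag and Ragulator list holds lysosomal machinery through which amino acids reach mTORC1, along with partners and sensors of it. This list had the most genes higher at 6 h of the 9 lists. There 7 of 16 measured genes (43.8%) were at least 1.5-fold higher and 0 lower, with a list median of 0.099. Among all genes 8.97% were higher and 9.31% lower at 6 h. At 1 week 0 of 15 genes of the list passed either way. Rragd, a Rag GTPase gene, was at 8.42 CPM in irradiated and 1.13 CPM in sham at 6 h, log2 2.90 (1.96 to 3.97). Fnip2, a folliculin partner, was at 28.8 and 9.65 CPM in irradiated and sham at 6 h, log2 1.58 (1.22 to 1.94), and Rragc, another Rag gene, at 166 and 66.2 CPM, log2 1.33 (1.19 to 1.47). The other higher genes, named here after their values were seen, were Castor1 (named Gatsl3 in the files), an arginine sensor, at 1.09 (0.66 to 1.52), the folliculin gene Flcn at 0.88 (0.74 to 1.02), the Ragulator subunit gene Lamtor3 at 0.74 (0.59 to 0.90) and Fnip1 at 0.64 (0.45 to 0.84). Lamtor1, Lamtor4 and Lamtor5 stayed within 0.1 of sham on the log2 scale. Lamtor2 at -0.18 (-0.33 to -0.041) and Slc38a9 at -0.39 (-0.66 to -0.13) were lower without passing 1.5-fold. Of 15 genes downstream of mTORC1, the lipin gene Lpin1 was higher at 6 h, at 0.78 (0.50 to 1.05), and the autophagy kinase genes Ulk1 and Ulk2 and the S6 kinase gene Rps6kb2 were lower, at -0.84 (-1.44 to -0.26), -0.76 (-0.997 to -0.52) and -0.68 (-1.03 to -0.33). None of 15 passed 1.5-fold at 1 week.

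**Figure D5:**
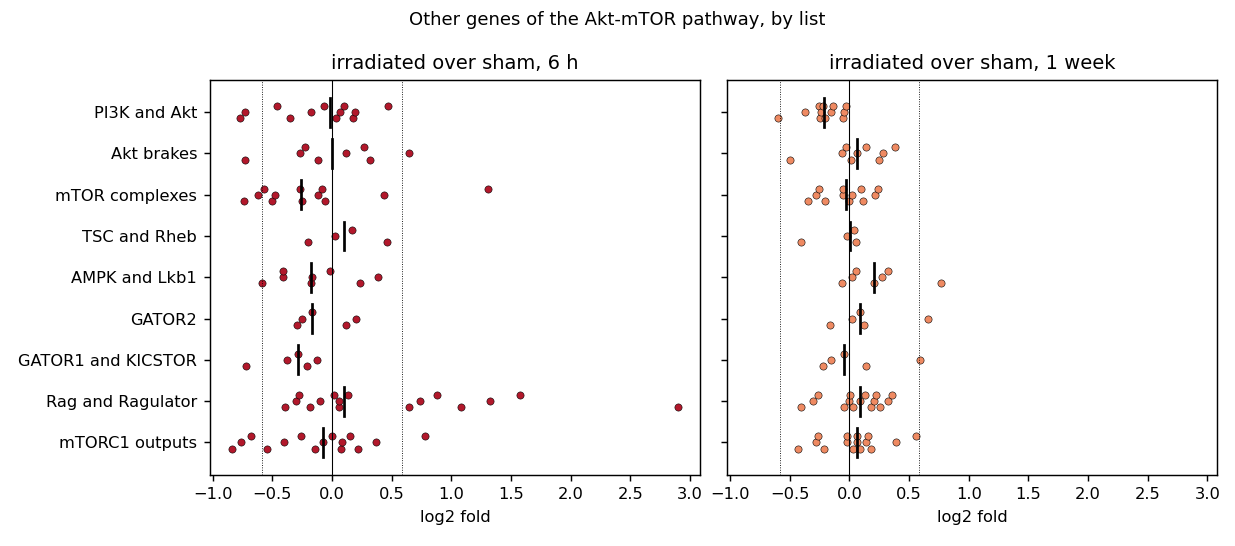
Log2 fold of irradiated over sham at 6 h (left) and 1 week (right) for the other genes of 9 Akt-mTOR pathway lists with at least 50 UMIs over both libraries. Points are genes, black bars list medians and dotted lines 1.5-fold. The Rag and Ragulator list has 7 of 16 genes past 1.5-fold on the higher side at 6 h and none at 1 week.

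Lists of regulators known to act on these 5 genes differed from each other. Among all genes 8.97% were at least 1.5-fold higher and 9.31% lower at 6 h, and 4.01% and 3.12% at 1 week. Of the p53 targets, the 5 genes left out, 20 of 26 were at least 1.5-fold higher and 0 lower at 6 h, with a median of 2.54. At 1 week 17 of 25 of these targets were higher and 2 lower, with a median of 1.14. The highest at 6 h were Gdf15, a stress cytokine, at log2 7.57 (6.93 to 8.31), Cdkn1a, the cell cycle inhibitor p21, at 5.82 (5.69 to 5.95), and the kinase gene Plk2 at 5.15 (4.36 to 6.08). At 1 week Cdkn1a was at 5.28 (5.12 to 5.44), and Perp and Rrm2b were lower, at -0.96 (-1.84 to -0.11) and -0.67 (-1.16 to -0.17). Psrc1 at 3.67 (2.05 to 5.996) and the cyclin gene Ccng1 at 2.49 (2.17 to 2.82) followed at 1 week. Of the 26 measured genes at 6 h, only Rrm2b lay below sham, at -0.25 (-0.69 to 0.18), within counting error, against -0.86 for Sesn1. How much these genes were higher was part of the earlier results with which the list was chosen.

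Atf4 targets had 3 of 14 higher and 2 lower at 6 h, with Atf3 at 1.60 (1.49 to 1.72), Cebpb at 1.03 (0.95 to 1.10) and Ddit3 at 0.70 (0.51 to 0.89), and the serine synthesis genes Psat1 and Phgdh at -1.01 (-1.47 to -0.56) and -0.78 (-0.90 to -0.66). At 1 week 0 were higher and 2 lower, Atf3 at -1.16 (-1.29 to -1.02) and Cebpb at -1.003 (-1.20 to -0.81). For sham cells alone, Atf3 was higher at 1 week than at 6 h, at 205 and 92.8 CPM, so its lower call at 1 week rests on the sham library of that time. Of FoxO targets, 3 of 17 were higher and 6 lower at 6 h, among them Foxo3 itself at 1.17 (0.93 to 1.42) and Irs2 at 1.02 (0.36 to 1.68), against Klf2 at -0.87 (-0.94 to -0.80), Ccng2 at -0.76 (-0.90 to -0.63) and Insr at -0.73 (-1.15 to -0.32). At 1 week 0 of 16 were higher and 2 lower, with Klf2 at -1.25 (-1.31 to -1.18). Beside both lists, 8.97% of all genes were higher and 9.31% lower at 6 h, and 4.01% and 3.12% at 1 week.

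For regulators tied to Ddit4, glucocorticoid targets had 3 of 12 higher and 0 lower at 6 h. These were the metallothionein genes Mt2 at 3.42 (3.10 to 3.75) and Mt1 at 1.47 (1.39 to 1.54) and the glucocorticoid receptor chaperone gene Fkbp5 at 0.61 (0.45 to 0.77). At 1 week, where Ddit4 was also higher, 0 of 12 were higher and 1 lower, with a median of -0.13. That lower gene was Cdkn1c, at -1.09 (-1.50 to -0.67). In sham cells of 1 week, set against those of 6 h, the list had 0 higher and 1 lower of 12, with a median of 0.25. The lower gene was Fkbp5, at -0.61 (-0.84 to -0.39). Named after their values were seen, Tsc22d3 at -0.53 (-0.67 to -0.39) and Per1 at -0.49 (-0.98 to -0.0090) were also lower without passing 1.5-fold. They were picked from the 12, and the list median of 0.25 lay on the other side. The part of glucocorticoids in the sham difference of Ddit4 was not tested. Hypoxia targets had 2 of 12 higher and 2 lower at 6 h, with Hif1a at 0.92 (0.75 to 1.08), the glucose transporter gene Slc2a1 at 0.84 (0.64 to 1.03) and Pdk1 at -0.84 (-1.02 to -0.65). At 1 week 0 of 12 were higher and 1 lower, Pgk1 at -0.94 (-1.57 to -0.32), with a median of -0.12. Between the sham libraries 0 of 12 were higher and 1 lower, with a median of -0.068. Ddit4 was at -1.82 between the same libraries. Lists of 12 genes are small beside the shares of all genes. Those were 8.97% higher and 9.31% lower at 6 h, and 4.01% higher and 3.12% lower at 1 week. Between the shams they were 2.89% higher and 4.89% lower. The hypoxia counts at 6 h and between the shams are near these shares.

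The genes nearest to each of the 5 in pattern were sought by Euclidean distance over the log2 folds of irradiated over sham at 6 h, irradiated over sham at 1 week and sham at 1 week over sham at 6 h, among 9767 other genes with at least 100 UMIs. For Phlda3 they were D630023F18Rik at a distance of 0.453, Fam212b at 2.91 and Matn1 at 3.29. Only D630023F18Rik came close, but these distances rest on few sham UMIs. In sham at 6 h and 1 week, Phlda3 had 6 and 5 UMIs, Fam212b 8 and 6, and Matn1 1 and 4. D630023F18Rik had 963 UMIs in irradiated and 2 in sham at 6 h and 452 in irradiated and 2 in sham at 1 week. For Sesn2 the nearest were Aen at 0.370, Zak at 0.395 and Glipr1 at 0.417. Sesn1 was nearest to Hexdc at 0.0394, Kif21b at 0.0534 and Dgka at 0.0557, and Sesn3 to Sall1 at 0.0413, Krba1 at 0.0532 and Slc17a9 at 0.0618. The fold intervals of Sesn1 and Sesn3 are far wider than these distances, which therefore do not rank likeness. Sesn3 had 16 to 45 UMIs per library, Hexdc 33 to 81 and Dgka 31 to 75. Ddit4 was nearest to Ifitm3 at 0.563, Zbp1 at 0.638 and Slfn5 at 0.677. For Ifitm3 the log2 folds were 1.18 at 6 h and 1.17 at 1 week, with -2.21 from sham to sham, against 1.13, 1.58 and -1.82 for Ddit4. These distances rest on 4 libraries, and genes with folds near those of many others find near neighbours more easily.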

How the data were processed

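For each barcode the deposited files give unnormalized UMI counts of every gene, which the authors obtained with Cell Ranger 2.0 on mm10, per the submitters' processing notes; no annotation release or barcode threshold is named in the sources used. Genes and lists were chosen with earlier results of these data known. Barcodes were kept from 1000 UMIs and 500 genes with at most 10% mitochondrial UMIs. No doublet caller was run, and the cells with most UMIs were left out as an alternative. UMIs were summed per library and divided by the library total (CPM). Levels carry exact Poisson intervals, folds exact conditional binomial intervals, and shares exact Clopper-Pearson intervals, all at 95%. They treat UMIs as independent and are too narrow for genes unevenly spread over cells, such as Ddit4. A gene was measured from 50 UMIs over both libraries, and 1.5-fold was the call. A gene near silent in sham cells could thus be measured only through irradiated cells. For each list, up to 3 genes per direction and time with the largest folds were named, and for each of the 5 genes the 3 nearest in pattern. Of 305 list symbols, 299 matched by symbol, 3 by identifier and 3 not. Of 27998 identifiers, 27645 matched GENCODE vM21 (GRCm38, the same build as mm10), the source of gene coordinates. Promoters of all 5 genes were found in the RefSeq table. The fold calculation was tested on simulated data. Alternative scalings used edgeR 4.0.16 and DESeq2 1.42.0, and the rest Python 3.11.15 and scipy 1.17.1.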

Additional observations from a re-analysis of the deposited data

Results flagged for a closer look

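Some genes of the regulator lists were past 1.5-fold in opposite directions at 6 h and at 1 week, each against the sham library of its time; with 1 library per group the difference between times was not tested. Atf3, a stress-induced transcription factor gene, was at log2 1.60 at 6 h and -1.16 at 1 week. Its level was 92.01 CPM in irradiated and 205 CPM in sham at 1 week, beside 92.8 CPM in sham at 6 h, so the call at 1 week rests on the sham library of that time. Cebpb, a transcription factor gene of myeloid cells, was at 1.03 at 6 h and -1.003 at 1 week, and its sham level was 96.4 CPM at 1 week and 247 CPM at 6 h. Perp, a p53 target of the cell surface, was at 1.91 at 6 h and -0.96 at 1 week, where it had 21 UMIs in irradiated and 30 in sham cells.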

How the results depend on the processing

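The folds of the 5 genes to the sham library of the same time were recomputed with other cells and scalings. Their direction and their side of 1.5-fold held with all barcodes, stricter cells, microglia-marker cells and no top 5% of cells by UMIs. They also held with both other scalings and with equal weight per cell. So they did without cells that held 2 or more UMIs of neuron, astrocyte, oligodendrocyte, oligodendrocyte precursor, endothelial, pericyte or ependymal markers. The same held when markers common in microglia were left out of that cell removal, an alternative chosen after seeing the data. With cells thinned to 2000 UMIs the log2 fold at 6 h was 10.82 (8.34 to 16.1) for Phlda3, which then had 1 sham UMI, and 1.23 for Ddit4. Against the sham library of the other time, Ddit4 was at 2.95 at 6 h and reversed to -0.25 at 1 week; the cause was not tested. Shares of cells rose with depth. Unthinned, they were 65.1% and 0.226% for Phlda3 in irradiated and sham at 6 h and 29.9% in irradiated at 1 week. In the order irradiated and sham at 6 h, then irradiated and sham at 1 week, they were 12.7%, 22.6%, 19.5% and 21.3% for Sesn1, 24.4%, 3.66%, 11.4% and 3.03% for Sesn2, and 52.5%, 32.8%, 28.0% and 9.80% for Ddit4, and 1.66% for Sesn3 in sham at 6 h. At 3000 UMIs per cell they were, in that order, 10.4%, 18.8%, 17.1% and 17.9% for Sesn1, 19.5%, 3.39%, 9.15% and 2.92% for Sesn2, and 47.0%, 27.3%, 23.2% and 8.95% for Ddit4. Phlda3 was then at 60.3% in irradiated at 6 h and 26.8% in irradiated at 1 week, and Sesn3 at 1.37% in sham at 6 h. From 200 UMIs per gene, 5 pathway genes were lower at 6 h (10 from 50 UMIs) and 1 was higher at 1 week (3 from 50 UMIs). From 20 UMIs and from 1 UMI, 3 and 4 were lower at 1 week (1 from 50 UMIs). Scaling moved the median of all genes by at most 0.065. No paired analysis was possible because each group has 1 library, and for the same reason no replicate could be left out. Depth limits Sesn3, and the sham level of Phlda3.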
